A study of Mus musculus with 11 samples.

Results

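The clustered histone genes are the protein-coding genes whose GENCODE symbol begins with Hist1h, Hist2h, Hist3h or Hist4h, and which encode the linker histone H1 and the core histones H2A, H2B, H3 and H4. Members were those with a summed expected count of 10 or more over all 11 libraries, a rule that does not look at the groups. Of 67 such genes in the table, 37 were members: 5 of 6 H1 genes, 9 of 18 H2A genes, 11 of 18 H2B genes, 3 of 12 H3 genes and 9 of 13 H4 genes. Hist1h4j had the lowest sum inside the limit, 15.0, and Hist1h2bf the highest outside it, 9.89. The 30 genes left out included 5 that were at 0 in every library.

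Polyadenylated RNA was sequenced from primary neural stem cells (NSCs) of the embryonic mouse hippocampus, which received 4HBP at 1 µM or the vehicle EtOH (CTRL) over 7 days. The labels name the compound 4-Hydroxybenzoic acid, whereas the study's text names it 4-hydroxybenzophenone. The cultures stood in proliferation medium, which holds the growth factors EGF and bFGF, or in differentiation medium, which holds neither and has more B27 supplement: Proliferation_CTRL (3 libraries), Proliferation_4HBP (3), Differentiation_CTRL (2) and Differentiation_4HBP (3). The study's animals were C57BL/6 mice, the labels name no engineered allele, and no source used here says whether libraries of a group came from separate animals, so p-values measure only the spread between these libraries, which may be technical.

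Library totals lay between 20822921 and 23438463 expected counts, the fragments RSEM assigns to a gene after sharing out those that align to several places, and 3 counts correspond to 0.128 to 0.144 CPM (expected counts scaled to the same library total), a floor that covers counting error only. The stem cell markers Nes, Sox2 and Vim were high in proliferation medium, and all 7 stem and radial glia markers were lower in differentiation medium under both treatments. Of all genes that passed the filter on low counts described below, 30.6% were lower under vehicle and 33.8% under 4HBP. Cultures in both media also held RNA of glia, with Mbp, a myelin gene, at 772 to 1607 CPM in proliferation and 3132 to 3429 CPM in differentiation medium. The markers Aif1 of microglia, Cldn5 of endothelium and Lum of fibroblasts were at 0 in every proliferation library and at most 0.171 CPM in differentiation medium. Other markers of these cell types were detected at low levels. The 5 microglia markers together had 1.81 to 3.53 CPM in Proliferation_CTRL and 1.23 to 1.24 CPM in Differentiation_CTRL. In the same groups the 3 endothelium markers had 1.77 to 1.91 and 2.05 to 2.14 CPM. The 4 fibroblast markers had 0.238 to 0.621 and 1.14 to 1.19 CPM. In bulk RNA of this kind, fewer cells of a type and less RNA per cell cannot be told apart. Proliferation_4HBP replicate 3 stood apart from the other replicates of its group, and results that change without it are given as such.

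Histone genes of the clusters supply the bulk of the histones that package newly made DNA, and they are known for RNA that peaks in S phase. Most messenger RNAs end in a poly(A) tail, but replication-dependent histone messenger RNAs are cut a few bases after a conserved hairpin, which the stem-loop binding protein Slbp holds, and carry no tail. Some clustered histone genes also give longer transcripts with a poly(A) tail, which are known from cells that have left the cell cycle. A poly(A)-selected library keeps tailed RNA, so the values here are read as mainly that form and not as the total histone RNA. Tails were not measured, and how much tailless RNA remained was not tested. The annotated transcript of Hist2h2aa2 ends 35 bases after the hairpin, and 8 members with a hairpin have 100 bases or fewer after it.

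The hairpin was looked for in the annotated transcripts because it is the part of the sequence that marks the tailless form. The letters searched, on the transcript strand, were the stem arm GGNNCT, the loop TNTN and the stem arm AGNNCC in 1 unbroken run, where N is any base. They stood in the longest coding transcript of 27 of the 37 members and in any transcript of 28, against any coding transcript of 136 of 21901 protein-coding genes (0.621%), of which 46 were clustered histone genes. The printed windows hold the hairpin in capitals with 5 bases on each side, on GRCm38 (GENCODE vM21): Hist1h1c at chr13:23739507-23739532 on the plus strand, Hist2h2aa2 at chr3:96239779-96239804 on the minus strand, Hist3h2a at chr11:58955167-58955192 on the plus strand, Hist3h2ba at chr11:58949344-58949369 on the plus strand, Hist2h3c2 at chr3:96238480-96238505 on the minus strand, Hist1h4i at chr13:22040961-22040986 on the minus strand and Hist1h4h at chr13:23531453-23531478 on the plus strand. Each lies in the 3′ UTR of a transcript of a single exon.
Hist1h1c: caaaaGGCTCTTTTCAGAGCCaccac
Hist2h2aa2: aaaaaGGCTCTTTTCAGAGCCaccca
Hist3h2a: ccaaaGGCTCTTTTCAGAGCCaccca
Hist3h2ba: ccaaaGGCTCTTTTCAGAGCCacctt
Hist2h3c2: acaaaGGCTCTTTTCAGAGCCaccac
Hist1h4i: ttaaaGGCCCTTTTTAGGGCCaccac
Hist1h4h: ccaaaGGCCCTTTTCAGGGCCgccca

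All 19 H1, H2A, H2B and H3 members with the letters held the same version, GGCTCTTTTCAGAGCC. The 8 H4 members with the letters held 4 others, of which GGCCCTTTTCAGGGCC, in 4 genes, was the commonest. The annotated transcript ran on for more than 100 bases after the hairpin in 19 of the 27 members, for instance for 840 bases in Hist1h1c, 1643 in Hist3h2a, 169 in Hist3h2ba and 377 in Hist2h3c2. Among the genes under the limit that held the letters, 4 ran on for more than 100 bases and 14 for 100 or fewer. These shares are descriptions, since the same libraries chose the members.

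The H2B genes Hist1h2bc and Hist2h2be were among the 10 members without the letters in their longest coding transcript. Hist1h2bc has an annotated transcript of 2 exons. The last 30 annotated bases of Hist1h1c (chr13:23740338-23740367, plus strand), of Hist3h2ba (chr11:58949504-58949533, plus strand) and of Hist2h2be (chr3:96223709-96223738, plus strand) are printed because they carry AATAAA, the signal for adding a poly(A) tail, in capitals. AATAAA or ATTAAA stood within the last 35 annotated bases of 16 members.
Hist1h1c: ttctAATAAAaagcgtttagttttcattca
Hist3h2ba: attAATAAAtttggttcaattttggccaca
Hist2h2be: ttattattAATAAAgttaccgattagtttc

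The promoters of members were compared with all promoters to see which motifs they share. RefSeq windows from 250 bases before to 50 bases after the start (GRCm38.p6) were matched for 34 members, 35 windows in all. CCAAT, on either strand, stood in 29 of the 35 windows (82.9%), against 37.4% of all 32851 windows. It was in every H1, H2A, H2B and H3 window and in 2 of 8 H4 windows. TATAAA stood in 54.3% of the members' windows and 13.6% of all, and ATTTGCAT, the octamer, in 14.3% and 1.74%. The window of Hist1h1c (chr13:23738557-23738856, plus strand) is shown with its CCAAT in capitals, and that of Hist1h4i (chr13:22041313-22041612, minus strand), which holds no CCAAT, with its TATAAA in capitals.
Hist1h1c: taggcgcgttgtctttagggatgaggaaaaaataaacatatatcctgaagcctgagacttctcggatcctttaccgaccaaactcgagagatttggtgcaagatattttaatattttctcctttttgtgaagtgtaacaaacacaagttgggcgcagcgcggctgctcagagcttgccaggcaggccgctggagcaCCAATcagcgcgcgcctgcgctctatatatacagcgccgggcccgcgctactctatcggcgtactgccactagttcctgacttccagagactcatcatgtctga
Hist1h4i: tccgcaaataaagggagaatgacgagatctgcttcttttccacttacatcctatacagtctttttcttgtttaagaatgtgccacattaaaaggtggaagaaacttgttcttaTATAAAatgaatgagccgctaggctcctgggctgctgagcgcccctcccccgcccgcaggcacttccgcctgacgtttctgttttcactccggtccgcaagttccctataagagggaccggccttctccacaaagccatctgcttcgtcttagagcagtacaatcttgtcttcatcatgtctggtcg

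A few genes carried most of the RNA. On the TPM scale, which is per length and so allows genes to be compared, the mean level over the 11 libraries was 72.1 for Hist1h2bc (H2B), 48.8 for Hist2h2aa2 (H2A), 45.3 for Hist1h1c (H1), 33.5 for Hist3h2ba (H2B) and 18.8 for Hist3h2a (H2A). The next were Hist2h2aa1 (H2A) at 5.75, Hist2h3c2 (H3) at 5.06, Hist2h2be (H2B) at 4.30 and Hist1h4i (H4) at 4.05. Among the other leading genes of their types were Hist1h4h (H4) at 1.79, Hist1h1e (H1) at 1.69, Hist1h3d (H3) at 1.55, Hist1h4k (H4) at 1.33, Hist2h3c1 (H3) at 0.28 and Hist1h1b (H1) at 0.399. The H3 and H4 members had far less assigned RNA than the H2A and H2B members, though nucleosomes hold these 4 types in equal amounts. Histones encoded outside the clusters are not in these values. Reads of the H3 copies on chromosome 3 may have been assigned to Gm20634, which is described below. Hist1h2bc alone gave on average 25.1% of the members' TPM in proliferation and 28.7% in differentiation medium, and Hist1h1c 10.6% and 20.4%.

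**Figure D1:**
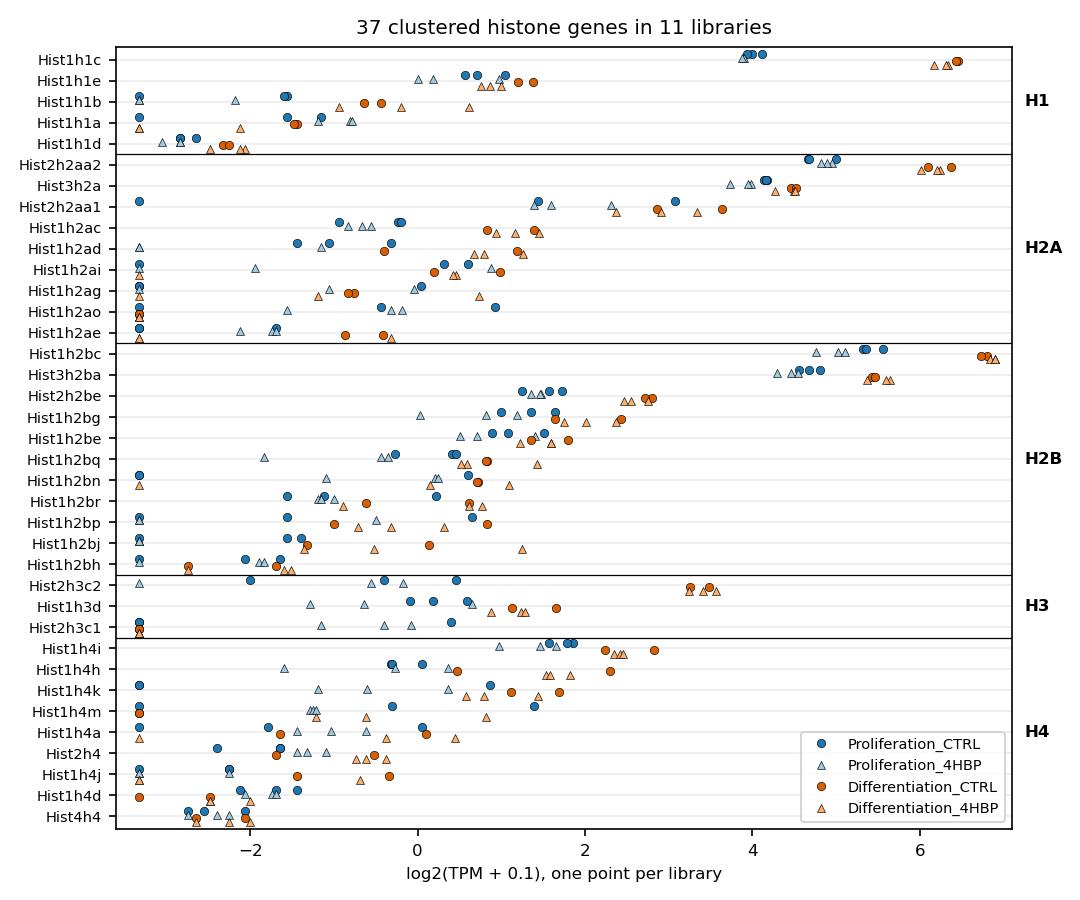
Level of each of the 37 members in each library, as log2(TPM + 0.1), with blue points for proliferation and orange points for differentiation medium, circles for vehicle and triangles for 4HBP, grouped by histone type. Points at the left edge are values of 0. The orange points of Hist1h1c, Hist2h2aa2, Hist1h2bc and Hist2h3c2 lie to the right of all their blue points.

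Summed over the 37 members, clustered histone RNA was higher in differentiation than in proliferation medium. The sum was 108, 112 and 105 CPM in Proliferation_CTRL, 98.5, 92.0 and 80.4 in Proliferation_4HBP, 230.1 and 217 in Differentiation_CTRL and 224, 216 and 219 in Differentiation_4HBP. Every differentiation library lay above every proliferation library, and within proliferation medium every 4HBP library lay below every vehicle library. The means were 108 ± 3.51 (SD, n = 3) and 223 ± 9.44 (SD, n = 2) under vehicle, a ratio of 2.06, and 90.3 ± 9.16 (SD, n = 3) and 219 ± 4.30 (SD, n = 3) under 4HBP, a ratio of 2.43. No p is given for these sums, because the members were chosen with results known. Without Hist1h1c and Hist1h2bc, which are the highest members on the CPM scale, the ratios of the other 35 were 1.46 and 1.64.

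By type, the ratio of the summed CPM between the media under vehicle was 3.91 for H1, 3.76 for H3, 1.83 for H2B, 1.51 for H4 and 1.35 for H2A. Under 4HBP it was 3.90, 4.02, 2.51, 1.74 and 1.48 in the same order. H1 rested on Hist1h1c, so its ratio is close to that of a single gene. H3 rested on Hist2h3c2 in differentiation medium alone, so its ratio is not that of a single gene. The mean expected count of Hist2h3c2 was 8.88 in Proliferation_CTRL and 116 in Differentiation_CTRL. It was 18.2 and 36.6 for Hist1h3d, and 10.5 and 0 for Hist2h3c1. On the TPM scale the share of H1 among the members was 10.5% to 13.1% in proliferation and 18.9% to 23.3% in differentiation libraries, while that of H2A was 32.0% to 38.3% and 25.5% to 29.4%. On that scale the ratios between the media under vehicle were 4.98 for H1, 5.84 for H3, 2.19 for H2B, 1.98 for H4, 2.18 for H2A and 2.55 for all members, so H3 and H2A moved by more than 1.5 times and the order of the types changed. TPM divides by length, and the H2A genes Hist2h2aa2 and Hist3h2a have annotated lengths of 528 and 2146 bases. The length RSEM took off for fragments was 193 to 204 bases in proliferation and 163 to 179 in differentiation libraries. Values above 0 that were not whole made up 14.8% to 16.0% and 21.6% to 23.2%. These library differences go with the medium, and their part in the ratios was not tested.

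**Figure D2:**
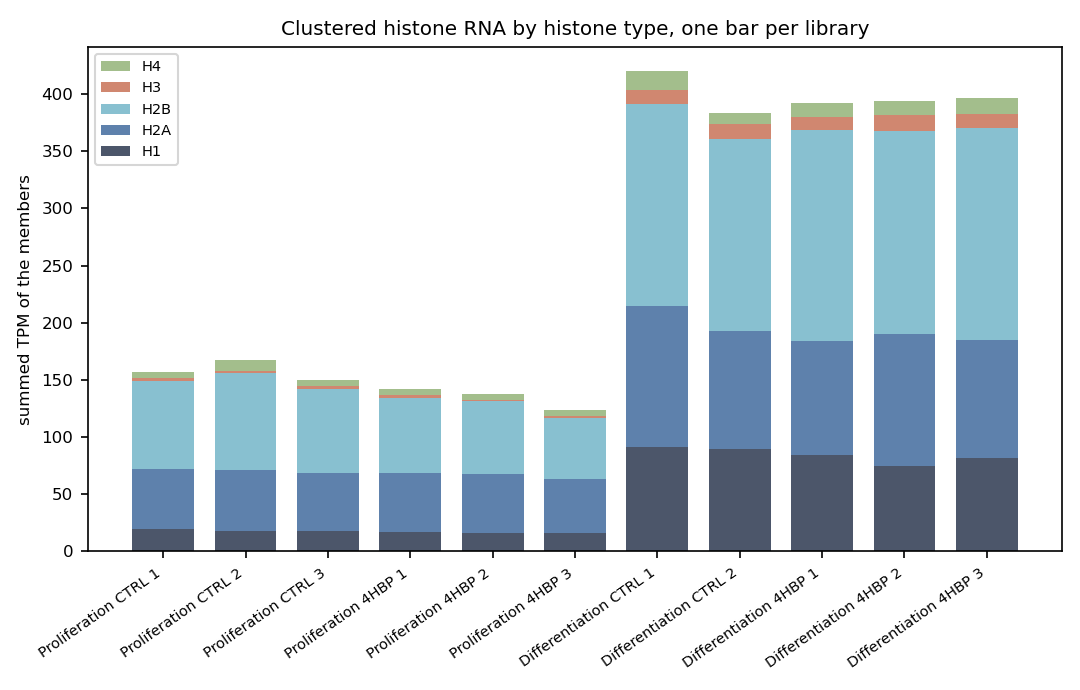
Summed TPM of the members in each of the 11 libraries, stacked by histone type from H1 at the bottom to H4 at the top. The bars stand between 124 and 167 TPM in proliferation and between 384 and 420 TPM in differentiation medium, and H3 and H4 are thin layers in all of them.

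Single genes were tested with edgeR's quasi-likelihood test on the whole table, with Benjamini-Hochberg adjustment over the 15920 genes that passed the filter on low counts. Only 21 of the 37 members passed it, and the 16 others have levels but no test. Of the 21, 16 reached the filter's level in at least 2 libraries of each medium. Hist1h1d, Hist1h2ad, Hist1h4h and Hist2h4 reached it in differentiation medium alone and Hist2h3c1 in proliferation medium alone, so these 5 could enter only through the medium where they are high. Between the media under vehicle, 8 members were higher and 0 lower in differentiation medium, and 7 of these 8 were among the 16. Across all genes tested, 61.4% passed in either direction, with 30.8% higher and 30.6% lower, so 8 of 21 in the higher direction lies close to the background. By an unadjusted p, 9 of the 21 members passed and 65.0% of all genes tested. The median log2 fold change was 0.84 over the 21 members and 0.03 over all genes tested.

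The H1 gene Hist1h1c rose in differentiation medium with the smallest adjusted p of all members. Its CPM was 17.3, 16.2 and 15.7 in Proliferation_CTRL and 71.7 and 70.1 in Differentiation_CTRL (log2 fold change 2.02, SE 0.08, adjusted p = 3.94e-10, edgeR), and 15.3, 15.2 and 14.5 in Proliferation_4HBP and 67.1, 59.0 and 65.6 in Differentiation_4HBP (log2 fold change 2.05, SE 0.07, adjusted p = 1.22e-10, edgeR). The media did not overlap, and the fold was 4.07 under vehicle and 4.13 under 4HBP. Hist1h1e, an H1 gene of the same cluster, overlapped between the media, with 1.97, 1.80 and 2.58 CPM in Proliferation_CTRL and 2.61 and 2.27 in Differentiation_CTRL (log2 fold change 0.11, SE 0.31, adjusted p = 0.769, edgeR). Of its 150-base windows 19.5% are shared with Hist1h2be, which overlaps it on the same strand. Hist1h1b was not tested, with 2.00, 0 and 2.00 counts in Proliferation_CTRL and 0, 0 and 1.00 in Proliferation_4HBP against 4.00 and 5 in Differentiation_CTRL and 11, 6 and 3.00 in Differentiation_4HBP.

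Among the H2A genes, Hist2h2aa2 rose in both comparisons of the media. It had 7.91, 6.21 and 6.30 CPM in Proliferation_CTRL and 17.3 and 14.1 in Differentiation_CTRL (log2 fold change 1.12, SE 0.14, adjusted p = 1.42e-05, edgeR), and 7.68, 7.23 and 6.72 in Proliferation_4HBP and 14.0, 15.7 and 15.6 in Differentiation_4HBP (log2 fold change 1.03, SE 0.13, adjusted p = 1e-05, edgeR). Its near-identical copy Hist2h2aa1, with 0, 2.41 and 0.759 CPM in Proliferation_CTRL and 3.02 and 1.72 in Differentiation_CTRL, did not pass (log2 fold change 1.05, SE 0.74, adjusted p = 0.237, edgeR). Hist2h2aa1 varied widely within its groups, while the sum of the copies did not. Every 150-base window of both genes also occurs in another annotated gene, so their split is uncertain, and their sum of 7.91, 8.62 and 7.06 CPM in Proliferation_CTRL and 20.3 and 15.8 in Differentiation_CTRL is the safer value (log2 fold change 1.11, SE 0.13, adjusted p = 7.54e-06 for the sum, edgeR, a fit added after the data were seen).

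Hist3h2a, the H2A gene of the small cluster on chromosome 11, gave no call between the media. Its CPM was 26.0, 25.8 and 26.3 in Proliferation_CTRL and 25.6 and 26.6 in Differentiation_CTRL (log2 fold change -0.08, SE 0.11, adjusted p = 0.517, edgeR), and the difference was 0.00 when libraries were scaled by their totals. Under 4HBP it did not pass either (log2 fold change 0.18, SE 0.10, adjusted p = 0.123, edgeR). It shares 28.0% of its windows with Trim17, which overlaps it on the same strand and was at 1.3 to 3.04 CPM in proliferation and 2.03 to 3.40 CPM in differentiation medium. Hist1h2ac, from the large cluster on chromosome 13, rose from 1.27, 0.727 and 1.32 to 3.44 and 2.27 CPM under vehicle (log2 fold change 1.26, SE 0.31, adjusted p = 0.00304, edgeR) and from 1.01, 0.905 and 0.768 to 2.96, 3.61 and 2.51 CPM under 4HBP (log2 fold change 1.72, SE 0.29, adjusted p = 0.00015, edgeR). Without Differentiation_CTRL replicate 1 the vehicle value was 0.94 and missed the threshold (adjusted p = 0.0564, edgeR).

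Hist1h2ad, for which the study designed a qPCR primer pair, was near the floor. The study reports that its top deregulated genes in proliferation medium held up by qPCR, and its primer list includes Hist1h2ad. It called genes by a limma p under 0.05, with no adjustment stated, and a limit on the fold change. Its expected counts were 2.25, 1.58 and 4.08 in Proliferation_CTRL, 0, 0 and 2.00 in Proliferation_4HBP, 11.3 and 3.59 in Differentiation_CTRL and 8.88, 8.16 and 11.4 in Differentiation_4HBP. In these libraries 3 counts are taken as the least that can be seen, and 59.3% of its 150-base windows occur in other genes. Under 4HBP it was higher in differentiation medium (log2 fold change 3.48, SE 0.85, adjusted p = 0.00265, edgeR), a fold that rests on 0 counts in 2 libraries. It had entered the test through differentiation medium alone, so this p does not stand apart from that selection. Under vehicle it did not pass (log2 fold change 1.26, SE 0.74, adjusted p = 0.157, edgeR).

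All 3 leading H2B genes rose under both treatments. Hist1h2bc, whose transcript lacks the hairpin letters, had 28.4, 34.1 and 29.6 CPM in Proliferation_CTRL and 64.8 and 61.1 in Differentiation_CTRL (log2 fold change 0.95, SE 0.11, adjusted p = 9.47e-06, edgeR). Under 4HBP it had 23.8, 24.7 and 18.9 CPM in proliferation and 67.3, 69.2 and 70.0 CPM in differentiation medium (log2 fold change 1.57, SE 0.10, adjusted p = 3.63e-08, edgeR). The difference was 1.93-fold under vehicle and 2.98-fold under 4HBP, and the media did not overlap in either. Hist2h2be, also without the letters, had 5.73, 5.24 and 4.15 CPM in Proliferation_CTRL and 9.90 and 9.34 in Differentiation_CTRL (log2 fold change 0.84, SE 0.15, adjusted p = 0.000299, edgeR), and a like difference under 4HBP (log2 fold change 0.83, SE 0.14, adjusted p = 0.000139, edgeR). Hist3h2ba, which lies beside Hist3h2a on chromosome 11, rose from 8.69, 7.95 and 7.31 to 11.2 and 11.3 CPM under vehicle (log2 fold change 0.41, SE 0.14, adjusted p = 0.021, edgeR) and from 7.34, 6.76 and 5.90 to 13.3, 10.7 and 12.7 CPM under 4HBP (log2 fold change 0.83, SE 0.13, adjusted p = 7.39e-05, edgeR). Its vehicle call was lost without Proliferation_CTRL replicate 3, Differentiation_CTRL replicate 1 or Differentiation_CTRL replicate 2, with adjusted p of 0.0644, 0.0743 and 0.0948 (edgeR). Hist2h2be and Hist3h2ba share no 150-base window with another gene, and Hist1h2bc shares 17.4%.

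For H3, Hist2h3c2 showed a large difference. Its CPM was 0.773, 0.406 and 0.0926 in Proliferation_CTRL and 0.364, 0 and 0.474 in Proliferation_4HBP, against 4.73 and 5.49 in Differentiation_CTRL and 4.76, 5.88 and 5.33 in Differentiation_4HBP. All differentiation libraries lay far above all proliferation libraries (log2 fold change 3.48, SE 0.50, adjusted p = 5.65e-05 under vehicle, and log2 fold change 4.15, SE 0.51, adjusted p = 9.75e-06 under 4HBP, edgeR). Its copy Hist2h3c1 went the other way, with 0, 0 and 31.4 expected counts in Proliferation_CTRL, 22.4, 16.9 and 8.82 in Proliferation_4HBP and 0 in all 5 differentiation libraries. Against the floor of 3 counts per library, its assigned counts were at least 5.61-fold lower in differentiation medium under 4HBP. That floor covers counting error only. Every window of Hist2h3c1 also occurs in other genes, so the fold is a bound on assigned reads and not on its RNA. Under 4HBP it passed by edgeR (adjusted p = 0.0203) but not by DESeq2 (adjusted p = 0.115). It was not called under vehicle (adjusted p = 0.0755, edgeR). Hist2h3c1 had entered the test through proliferation medium alone, so its 4HBP call does not stand apart from that selection. Summed, the copies had 0.773, 0.406 and 1.59 CPM in Proliferation_CTRL and 4.73 and 5.49 in Differentiation_CTRL, and were higher in differentiation medium by a log2 fold change of 2.38 under vehicle (SE 0.35, adjusted p = 7.13e-05, edgeR) and 2.29 under 4HBP (SE 0.32, adjusted p = 3.54e-05, edgeR). The third H3 gene, Hist1h3d, did not pass under vehicle (log2 fold change 0.84, SE 0.47, adjusted p = 0.14, edgeR) or under 4HBP (log2 fold change 1.07, SE 0.46, adjusted p = 0.0533, edgeR). Under 4HBP it passed in 7 alternatives, DESeq2 (adjusted p = 0.0480) and the replicate block (adjusted p = 0.0305) among them, and its log2 fold change was 1.97 without Proliferation_4HBP replicate 1 and 0.67 without replicate 3.

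The copies of chromosome 3 share their sequence with further annotated genes, 3 of which are given here. Gm20634, which contains every window of Hist2h3c1, was at 15.7 to 19.5 CPM in proliferation and 36.0 to 40.8 CPM in differentiation medium. Gm20632 was at 5.66 to 8.63 and 8.74 to 9.60 CPM, and Gm20633 at 4.81 to 6.41 and 7.85 to 9.32 CPM. The kit marks strand, but no source used here says whether RSEM was told so, and reads of genes that overlap on opposite strands may not have been told apart. The sum of all 7 genes was 35.4 to 43.2 CPM in proliferation and 74.9 to 81.9 CPM in differentiation medium, with no overlap (log2 fold change 0.90, SE 0.07, adjusted p = 3.81e-07 under vehicle, edgeR). This sum does not depend on how reads were shared out among the 7, but reads shared with genes outside the 7 are not covered by it.

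H4 transcripts were scarce. Hist1h4i, the leading H4 gene, had 1.39, 1.14 and 1.34 CPM in Proliferation_CTRL and 2.28 and 1.5 in Differentiation_CTRL (log2 fold change 0.46, SE 0.29, adjusted p = 0.188, edgeR), and 1.23, 1.05 and 0.72 in Proliferation_4HBP and 1.67, 1.71 and 1.78 in Differentiation_4HBP (log2 fold change 0.73, SE 0.27, adjusted p = 0.0296, edgeR). The 4HBP call was lost without Proliferation_4HBP replicate 3 (adjusted p = 0.111, edgeR) and without any single library of Differentiation_4HBP (adjusted p = 0.0519, 0.0641 and 0.0699, edgeR). Hist1h4h had 3.00, 4.00 and 3.00 expected counts in Proliferation_CTRL and 18.6 and 5.19 in Differentiation_CTRL (log2 fold change 1.63, SE 0.65, adjusted p = 0.0458, edgeR). Without Differentiation_CTRL replicate 1 its vehicle difference was 0.34 (adjusted p = 0.759, edgeR), and it missed the threshold in 11 further alternatives, DESeq2 among them (adjusted p = 0.0825). Under 4HBP it passed as well (log2 fold change 1.84, SE 0.61, adjusted p = 0.0172, edgeR), but not without Proliferation_4HBP replicate 1 (adjusted p = 0.0642, edgeR). Hist1h4h had entered the test through differentiation medium alone, so neither p stands apart from that selection. Hist1h4k was not tested, with 0, 3.00 and 0 counts in Proliferation_CTRL and 5.66 and 3.80 in Differentiation_CTRL.

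Among the 4HBP cultures, which share no library with the vehicle cultures, 12 members were higher and 1 lower in differentiation medium. Across all genes tested 67.2% passed in either direction, with 33.3% higher and 33.8% lower, the former below the 12 of 21 seen for the members. Of the 12 higher members, 9 were among the 16 that reached the filter's level in both media. The other 3, Hist1h1d, Hist1h2ad and Hist1h4h, had entered through differentiation medium alone, so their calls do not stand apart from that selection. The same holds for the 1 lower member, Hist2h3c1, which had entered through proliferation medium alone. The median log2 fold change was 0.92 over the 21 members and 0.01 over all genes tested. By unadjusted p 14 members passed and 70.0% of all genes tested. Besides those already given, Hist1h1d, an H1 gene, and Hist1h2bg, an H2B gene, passed here and are named because they complete the 12. Hist1h1d had 5, 5 and 2.00 expected counts in Proliferation_4HBP and 13.0, 8 and 12 in Differentiation_4HBP (log2 fold change 1.32, SE 0.47, adjusted p = 0.0242, edgeR), and lost the call without Proliferation_4HBP replicate 3 (adjusted p = 0.0977, edgeR). Hist1h2bg had 0.693, 0.287 and 0.507 CPM and 1.37, 0.853 and 1.05 CPM (log2 fold change 1.07, SE 0.40, adjusted p = 0.0312, edgeR), and lost it without Proliferation_4HBP replicate 2 or 3 or Differentiation_4HBP replicate 1 or 3, with adjusted p between 0.0557 and 0.113 (edgeR). Overlap over all genes was counted on the fit's own scale, CPM of rounded counts scaled by TMM, and not on the CPM printed for single genes. On that scale the libraries did not overlap between the media for 12 of the 21 tested members under vehicle, 11 of them higher, and for 15 under 4HBP, 14 of them higher, where the share over all genes tested was 76.3% (39.3% higher and 37.1% lower) and 71.6% (36.1% higher and 35.5% lower). The 1 lower member under vehicle was Hist3h2a, whose printed CPM overlap.

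The members tested but not called in any comparison of the media included Hist1h2be, an H2B gene with the hairpin letters, at 4.09, 3.17 and 2.77 CPM in Proliferation_CTRL and 3.03 and 4.09 in Differentiation_CTRL. Hist1h3d, an H3 gene, had 0.812, 1.12 and 0.669 and 1.94 and 1.31 CPM in the same groups, without overlap. Hist2h4, an H4 gene, had 0.0955, 0.238 and 0.239 and 0.182 and 0.512 CPM, with overlap. The 16 untested members held between 0 and 11 expected counts in any library, and the highest value was that of Hist1h1b in Differentiation_4HBP. They comprised 2 H1, 4 H2A, 4 H2B and 6 H4 genes. With no filter, 9 of the 37 members were higher and 3 lower in differentiation medium under vehicle, and 14 higher and 2 lower under 4HBP (edgeR), where 36.9% and 41.1% of all genes passed in either direction, so the members lay near the background.

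By cluster, the ratio of summed CPM between the media under vehicle was 2.54 for the 28 members on chromosome 13, 2.36 for the 6 on chromosome 3 and 1.10 for the 2 on chromosome 11. Under 4HBP these ratios were 3.16, 2.2 and 1.32. Hist4h4, the member on chromosome 6, stayed at 6 expected counts or fewer in every library. In proliferation medium the ratio of 4HBP to vehicle was 0.791 on chromosome 13 and 0.832 on chromosome 11, and 1.02 on chromosome 3.

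**Figure D3:**
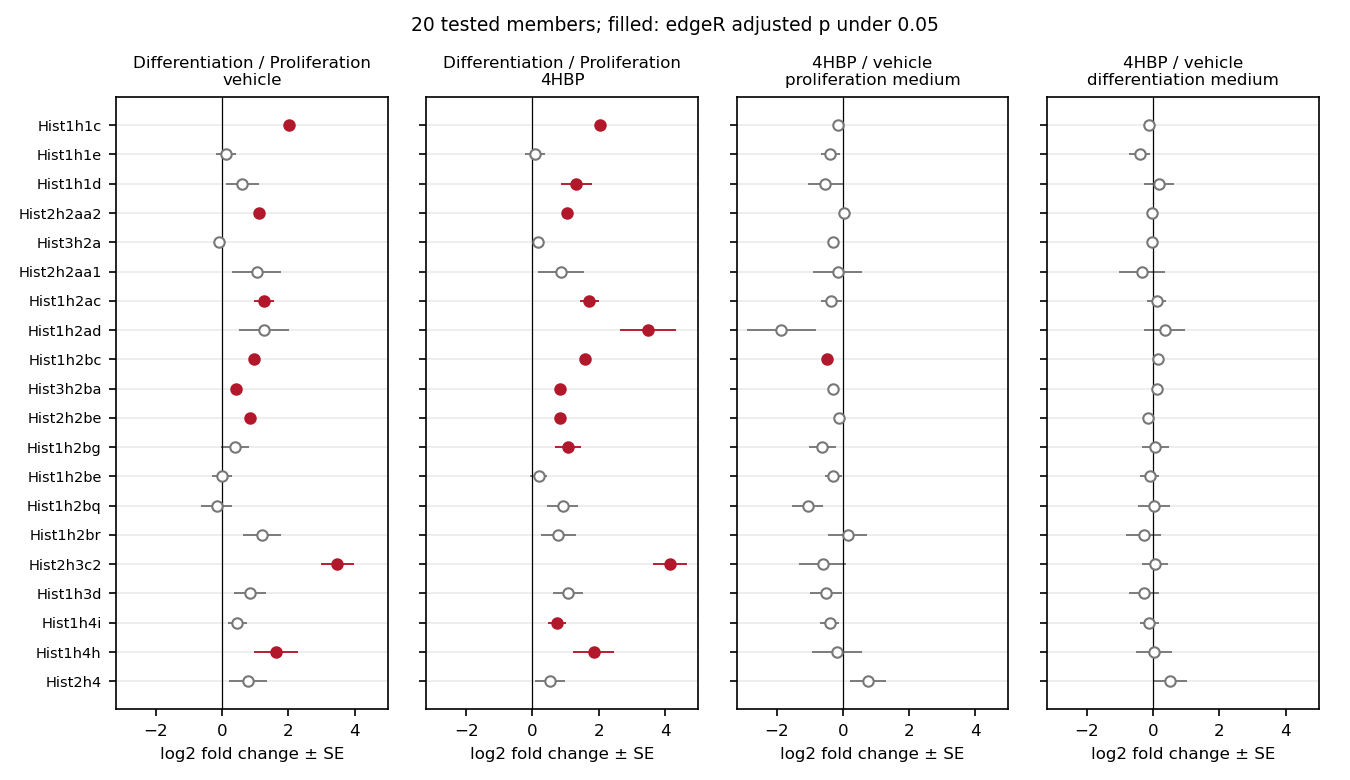
Fitted log2 fold change of 20 tested members with its standard error, for differentiation against proliferation medium under vehicle and under 4HBP and for 4HBP against vehicle in each medium, with filled red points for an adjusted p under 0.05 (edgeR). Hist2h3c1, at 0 in all differentiation libraries, is left out. Most points lie right of 0 in the comparisons of the media, and Hist1h2bc is the single filled point in the comparisons of treatment.

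The comparison of 4HBP with vehicle in proliferation medium asks what the compound does to dividing NSCs, and it uses the same Proliferation_CTRL libraries as the vehicle comparison of the media. Hist1h2bc fell, as the 1 member of 21 that passed, and 0 members rose, where 16.8% of all genes tested passed in either direction, with 8.59% higher and 8.17% lower. Its CPM was 28.4, 34.1 and 29.6 in Proliferation_CTRL and 23.8, 24.7 and 18.9 in Proliferation_4HBP, with every 4HBP library below every vehicle library (log2 fold change -0.48, SE 0.11, adjusted p = 0.00869, edgeR). By unadjusted p 4 members passed and 31.1% of all genes tested. When only these 6 libraries were fitted the adjusted p of Hist1h2bc was 0.0588 (edgeR), and without Proliferation_4HBP replicate 3, the lowest library, its log2 fold change was -0.35 (adjusted p = 0.00962, edgeR with all other libraries).

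The other members were mostly lower with 4HBP but did not pass. Of the 21, 17 had a log2 fold change below 0, with a median of -0.30 against -0.001 over all genes tested. Hist3h2a had 26.0, 25.8 and 26.3 CPM under vehicle and 23.5, 22.5 and 18.9 under 4HBP, with no overlap (log2 fold change -0.30, SE 0.10, adjusted p = 0.055, edgeR). Without Proliferation_4HBP replicate 1 it passed with a log2 fold change of -0.38 (adjusted p = 0.0262, edgeR), and it also passed by DESeq2 (adjusted p = 0.0444). Without Proliferation_4HBP replicate 3 its value was -0.18 (adjusted p = 0.137, edgeR). Hist1h1c, with 17.3, 16.2 and 15.7 and 15.3, 15.2 and 14.5 CPM, did not overlap either (log2 fold change -0.16, SE 0.08, adjusted p = 0.173, edgeR). Hist1h2ad was at 3 counts or fewer in all but 1 of the 6 libraries, and its expected counts overlapped (log2 fold change -1.86, SE 1.04, adjusted p = 0.253, edgeR). Hist3h2ba had 8.69, 7.95 and 7.31 and 7.34, 6.76 and 5.90 CPM, ranges that overlap (log2 fold change -0.29, SE 0.13, adjusted p = 0.154, edgeR). On the TMM-scaled CPM of rounded counts, the groups did not overlap for 6 of 21 members, 5 of them lower, one of which is Hist1h2ad, whose unrounded counts overlap, where 29.5% of all genes tested did not overlap (15.1% higher and 14.5% lower).

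By type, the summed CPM with 4HBP stood to that of vehicle in proliferation medium as 0.773 for H2B, 0.868 for H4, 0.876 for H2A, 0.901 for H1 and 0.927 for H3. The H2B sum was 49.2, 54.0 and 46.3 CPM in Proliferation_CTRL and 42.2, 40.1 and 33.3 in Proliferation_4HBP, without overlap, and the H3 sum was 1.58, 1.52 and 2.26 and 2.60, 1.23 and 1.14, with overlap. Dividing-cell markers were lower in the same libraries: Mki67, Top2a and Ccnb1 together were at 579 to 725 CPM in Proliferation_CTRL and 295 to 567 CPM in Proliferation_4HBP, and 0 of the 3 passed. The lowest sum, 295, was that of replicate 3, which also had the lowest histone sum. All 5 astrocyte markers fell with 4HBP, where 8.17% of all genes tested did. Together they had 4179 to 5112 CPM in Proliferation_CTRL and 2869 to 3504 CPM in Proliferation_4HBP. The part of either in the histone values was not tested.

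In differentiation medium 0 members passed for 4HBP against vehicle by edgeR, 0 by unadjusted p, and 0 by DESeq2 or by limma. In this fit, which shares its spread over all 4 groups, 0 of the 15920 genes tested passed by edgeR and 4.05% had an unadjusted p under the threshold. The 0 over all genes depends on the fit. With only these 2 groups fitted 395 of 15484 genes passed (2.55%, edgeR), and with no filter 116 did (0.428%, edgeR). Hist1h2bc, Hist1h1c and Hist3h2ba, given next, had no call in any edgeR or DESeq2 alternative. Hist1h2bc had 64.8 and 61.1 CPM in Differentiation_CTRL and 67.3, 69.2 and 70.0 in Differentiation_4HBP (log2 fold change 0.14, SE 0.11, adjusted p = 1.00, edgeR). Here the 4HBP libraries were the higher ones. Hist1h1c had 71.7 and 70.1 and 67.1, 59.0 and 65.6 CPM (log2 fold change -0.14, SE 0.07, adjusted p = 1.00, edgeR), and Hist3h2ba 11.2 and 11.3 and 13.3, 10.7 and 12.7 CPM (log2 fold change 0.13, SE 0.14, adjusted p = 1.00, edgeR). Leaving out Hist2h3c1, which is at 0, 10 members had a log2 fold change above 0 and 10 below, between -0.41 and 0.51. On the TMM-scaled CPM the groups did not overlap for 3 members, Hist1h2bc (higher), Hist1h1c and Hist1h1e (both lower), where 32.6% of all genes tested did not overlap (17.2% higher and 15.5% lower).

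Whether the 4HBP effect differs between the media was tested directly. Hist1h2bc was the 1 member of 21 that passed, where 4.49% of all genes tested did (2.01% above 0 and 2.48% below), with an effect lower in proliferation than in differentiation medium by 0.63 on the log2 scale (log2 fold change -0.63, SE 0.15, adjusted p = 0.0389, edgeR). It did not pass when Proliferation_CTRL replicate 2 or any 1 of the 5 differentiation libraries was left out (adjusted p between 0.0816 and 0.202, edgeR), nor by limma (adjusted p = 0.0989). By unadjusted p 2 members passed and 19.9% of all genes tested.

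**Figure D4:**
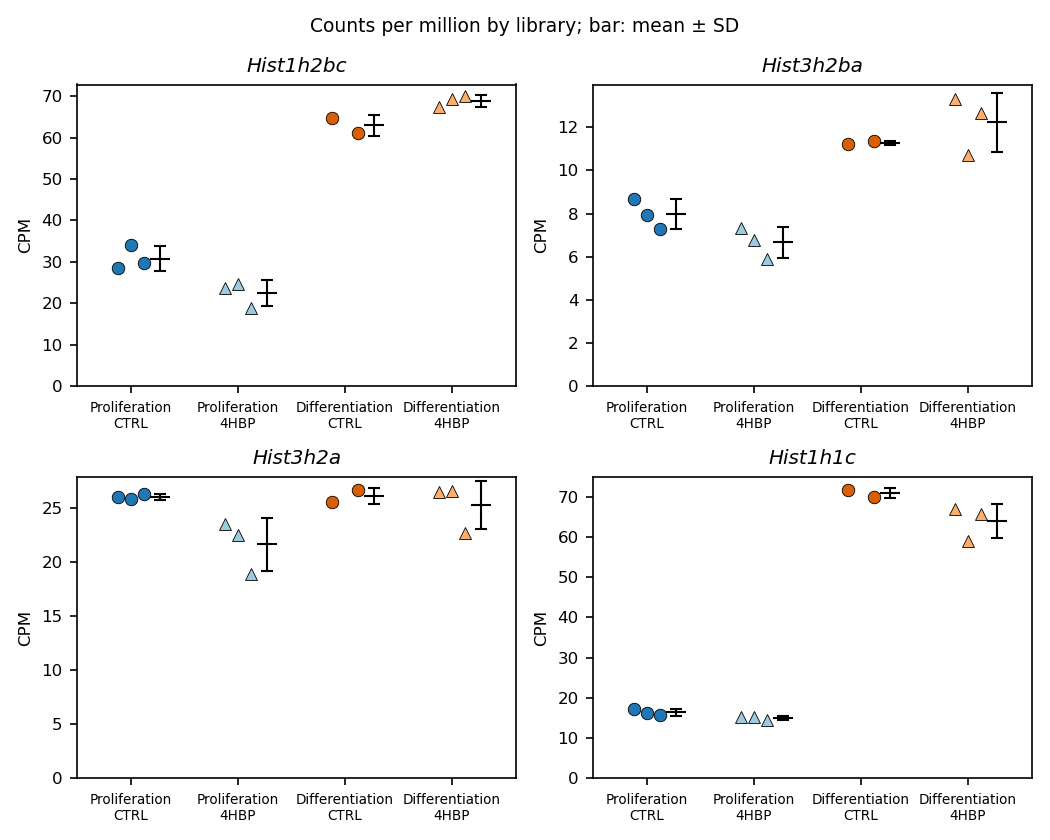
CPM of Hist1h2bc, Hist3h2ba, Hist3h2a and Hist1h1c in each library of the 4 groups, with bars for the mean and SD (n = 3, and n = 2 in Differentiation_CTRL). Hist1h1c, Hist1h2bc and Hist3h2ba are higher in every differentiation library than in every proliferation library, Hist3h2a is not, and Hist1h2bc and Hist3h2a are lower in every Proliferation_4HBP than in every Proliferation_CTRL library.

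Most genes of 2 lists, DNA replication and histone chaperones, fell in differentiation medium. Across all genes tested, 30.8% rose and 30.6% fell there under vehicle, and 33.3% rose and 33.8% fell under 4HBP. Of 28 genes of DNA replication in S phase, 28 fell in differentiation medium under vehicle, with a median log2 fold change of -2.15, among them Pcna, the replication clamp (-0.92), and Mcm5, of the replicative helicase (-2.39). Under 4HBP 27 of the 28 fell. Of 20 histone chaperones, which carry histones to DNA, 15 fell and 0 rose under vehicle, for instance Chaf1b (-2.74) and Asf1b (-2.44), and 13 fell and 1 rose under 4HBP. Under vehicle RNA of 8 of the 21 tested clustered histone genes rose, a count close to the 30.8% of all genes tested that rose. All 28 S phase genes fell, where 30.6% of all genes tested did. Cell type markers moved with the medium as well. Under vehicle the 7 stem and radial glia markers, all of which fell, together had 7069 to 7976 CPM in Proliferation_CTRL and 4319 to 4320 CPM in Differentiation_CTRL. The 3 dividing-cell markers, all of which fell, had 579 to 725 CPM and 68.7 to 90.9 CPM. The 5 markers of the oligodendrocyte lineage, 3 of which rose, had 2479 to 3082 CPM and 6729 to 7137 CPM. Of 5 astrocyte markers 3 rose and 2 fell, and of 6 neuron markers 3 rose and 2 fell. Their part in the histone values was not tested.

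Of the 20 genes found for the transcription, processing and decay of histone messenger RNA, 11 fell and 3 rose under vehicle, and 12 fell and 3 rose under 4HBP. Over all genes tested 30.6% fell and 30.8% rose under vehicle, and 33.8% fell and 33.3% rose under 4HBP. Slbp, the protein that binds the hairpin printed above, fell by 1.26 under vehicle and by 1.00 under 4HBP on the log2 scale. Eri1, an exonuclease of the hairpin end, had -1.04 and -0.85, Casp8ap2, a component of histone locus bodies, -0.89 and -0.91, and Npat, the activator of clustered histone genes, -0.60 and -0.63, all past the threshold. Sympk, Ncbp2 and Snrpb, which also serve other messenger RNAs, were the 3 that rose, by 0.42, 0.49 and 0.36 under vehicle.

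Histones encoded outside the clusters, most of which have polyadenylated RNA, were divided. Of 11 tested, 3 rose and 7 fell under vehicle, and 3 rose and 6 fell under 4HBP. The counts that rose lie near the share of all genes tested, 30.8% under vehicle and 33.3% under 4HBP, where 30.6% and 33.8% fell. H3f3a, a gene for the replacement histone H3.3, rose by 0.53, H2afj by 1.11 and H2afv by 0.26 on the log2 scale under vehicle. H2afz, for H2A.Z, had -1.05, H2afx, for H2A.X, -1.62, and Cenpa, the histone of centromeres, -1.73. With 4HBP in proliferation medium 13 of the 28 S phase genes fell (median -0.56), and 5 of 20 chaperones fell and 1 rose. In addition 2 of 11 histones outside the clusters fell, and 1 of 20 genes of histone RNA processing rose. Over all genes tested 8.17% fell and 8.59% rose in that comparison. In differentiation medium, and for the difference between the media, 0 genes of these 4 lists passed by edgeR, where 0% and 4.49% of all genes tested did.

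**Figure D5:**
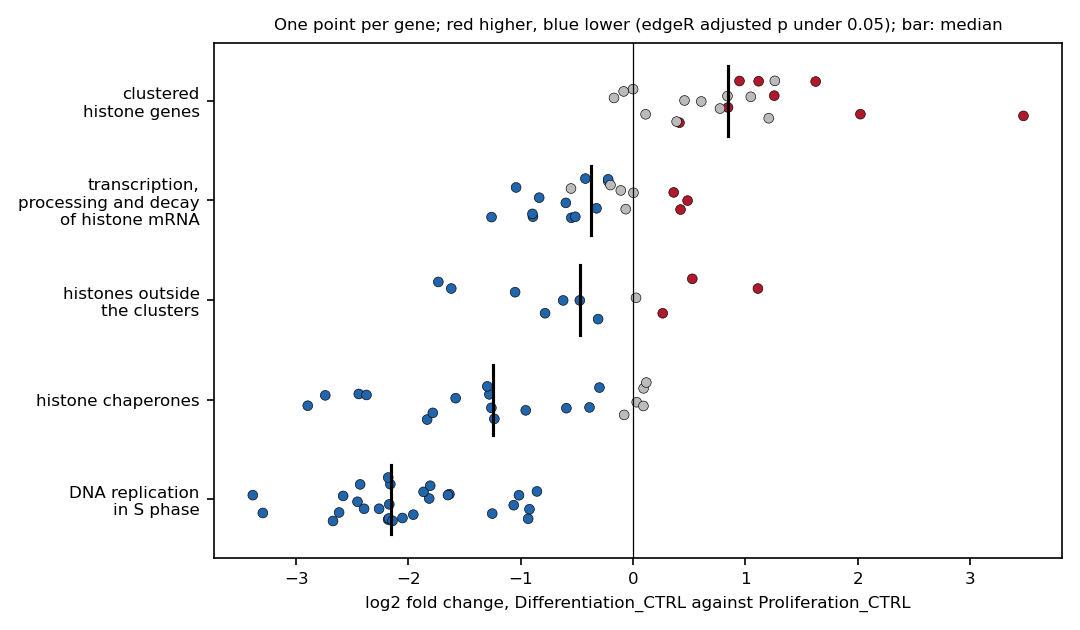
Fitted log2 fold change of Differentiation_CTRL against Proliferation_CTRL for each tested gene of the clustered histones (20, without Hist2h3c1) and of 4 other lists, red for higher and blue for lower past the threshold (edgeR), with a bar at the median. The S phase genes all lie left of 0 and most clustered histone genes right of it.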

How the data were processed

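Polyadenylated RNA of 11 libraries was sequenced after a stranded mRNA kit. The submitters' processing notes name cutadapt, FastQC 0.11.5, Bowtie2 2.2.9 and RSEM 1.3.0 with the genome build GRCm38 (mm10). The deposited expected counts are RSEM's estimates per gene, in which the authors let fragments that align to several genes be divided among them, so values of near-identical histone genes are uncertain. The deposited TPM values are RSEM's, scaled by effective length and to the same total in every library. Whether RSEM was run with its strand setting is not given in the sources used here.

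Gene symbols and transcripts came from GENCODE vM21, in which 99.7% of the listed identifiers were found. Expected counts were rounded and fitted with edgeR 4.0.16 (TMM, filterByExpr, quasi-likelihood test, R 4.3.3) over all 11 libraries with 1 mean for each of the 4 groups. Adjusted p are Benjamini-Hochberg values over all 15920 genes tested, with 0.05 as the threshold, and the test is two-sided. The standard error is the log2 fold change divided by the root of F. CPM are expected counts scaled by the library's total. The script was tested on simulated data. Library totals were 20822921 to 23438463 expected counts, and floors of 3 counts cover counting error only.

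The members and gene lists were chosen with earlier results of these data known. Genes were named by 4 rules: the 3 members of each histone type with the highest mean TPM, up to 5 called members in each direction per comparison with no overlap between groups, Hist1h2ad, and the genes next to the sum of 10. Hist1h1d, Hist1h2bg, Hist1h2be and Hist2h4 were named after their values were seen. Alternatives were other size factors, DESeq2 1.42.0, limma 3.58.1 on log2(CPM + 1) as in the study and on log2(CPM + 0.1), no filter, the replicate number as a block, fits of only 2 groups, leaving out each library, and, added after the data were seen, sums of near-identical copies. Of the gene lists, Ars2, Zcchc11 and Zcchc6 were not found under these symbols.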

Additional observations from a re-analysis of the deposited data

Results flagged for a closer look

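In the main fit the effect of 4HBP on Hist1h2bc differed between the media. It was the 1 member of 21 that passed, a count near the 4.49% of all genes tested that did. The log2 fold change of 4HBP against vehicle was -0.48 in proliferation medium and 0.14 in differentiation medium, and the test of the difference itself gave -0.63 (SE 0.15, adjusted p = 0.0389, edgeR). All 3 Proliferation_4HBP libraries lay below all 3 Proliferation_CTRL libraries, and all 3 Differentiation_4HBP libraries lay above both Differentiation_CTRL libraries. The call was lost without Proliferation_CTRL replicate 2 and without any 1 of the 5 differentiation libraries (adjusted p between 0.0816 and 0.202, edgeR), and by limma.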

How the results depend on the processing

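Under vehicle the count of members called between the media, 8, ranged from 5 to 9 when single libraries were left out, and the lowest came without Differentiation_CTRL replicate 1 (all genes 48.0% to 66.1%). Among the 4HBP cultures the count of 13 ranged from 9 to 14 (all genes 62.2% to 68.8%). For 4HBP in proliferation medium the count of 1 ranged from 1 to 2 (all genes 9.76% to 19.0%), and for the difference between the media the count of 1 ranged from 0 to 1 (all genes 0.752% to 6.93%). With no filter the counts were 12, 16 and 2 for the first 3 comparisons (all genes 36.9%, 41.1% and 11.9%), and 2 with DESeq2 (all genes 18.0%) or with the replicate block for 4HBP in proliferation medium. Fitting only the 2 groups gave 0 there (all genes 7.43%). For the difference between the media limma gave 0 (all genes 1.05% and 1.39%). Correlations of the deviations of same-numbered libraries from their group means were -0.0442, -0.112 and -0.136 in proliferation and 0.124 and 0.0087 in differentiation medium. With groups of 2 or 3 libraries these values cannot show whether the replicate numbers pair libraries. With the replicate block 7, 14, 2, 0 and 1 members were called (all genes 58.6%, 65.7%, 14.7%, 0.00628% and 4.35%). The direction turned for Hist3h2a between the media under vehicle (0.00304 with library totals, 0.00357 and 0.00369 with limma), for Hist1h1e under 4HBP (between -0.10 and 0.49 with single libraries left out, -0.10 without Proliferation_4HBP replicate 2, -0.08 without replicate 3, -0.01 without Differentiation_4HBP replicate 3) and for Hist2h3c1 once summed with Hist2h3c2 (2.38 under vehicle and 2.29 under 4HBP). Of the alternatives for single named genes, 702 kept direction and call, 40 lost the call, 21 gained it and 8 turned. The causes were not tested. Hist1h1c, Hist2h2aa2, Hist1h2bc, Hist2h2be and Hist2h3c2 kept their calls between the media under both treatments in every alternative run. Depth limits the 16 untested members, which held at most 11 expected counts in a library, and genes such as Hist1h2ad and Hist1h4h that lie near 3 counts in proliferation medium.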
